A study of Homo sapiens with 2 samples.

Results

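The 8 genes described here are 5 long noncoding RNAs, MALAT1, NEAT1, KCNQ1OT1, TUG1 and PVT1, and 3 host genes of small nucleolar RNAs (snoRNAs), GAS5, SNHG1 and SNHG14. They were taken by gene symbol from 741078 listed features, among them 14838 long non-coding RNA features. The study recovered RNA with the human tRNA methyltransferase hTrmt13 by CLIP-seq, in which RNA crosslinked to a protein is isolated with an antibody and sequenced. The material was MDA-MB-231, an established line of human breast carcinoma cells, as 1 group with 2 replicates, and no library of input RNA or of a control antibody was part of the comparison. Nothing in the labels says that the replicates were separate cultures, so their SD may be technical. How the RNA was crosslinked, and whether the protein was tagged or present at its own level, is not given in the sources used here. Values describe recovered counts and not enrichment over background, and low abundance of an RNA cannot be told apart from poor recovery.

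MALAT1 and NEAT1 are long, mostly unspliced transcripts of the nucleus. MALAT1 gathers in nuclear speckles, and its 3′ end is cut off as a small tRNA-like RNA called mascRNA. NEAT1 builds paraspeckles. KCNQ1OT1 is an imprinted antisense transcript that silences neighbouring genes, TUG1 acts in gene regulation and is found in nucleus and cytoplasm, and PVT1 is the neighbour of the MYC oncogene. GAS5 and SNHG1 carry snoRNAs in their introns, and their spliced RNAs are short-lived because translation of a short reading frame triggers their decay. SNHG14 is an imprinted transcript of the Prader-Willi and Angelman region, carries the SNORD116 and SNORD115 clusters and is antisense to UBE3A. Box C/D snoRNAs guide 2′-O-methylation of other RNAs, the same chemical mark that Trm13-type enzymes place on tRNA.

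The tables gave read counts of the first mate (R1) and the second mate (R2) of each library, and R1 is used unless stated. R1 tables summed to 27907799 counts in replicate 1 and 20590398 in replicate 2. None of the 8 genes overlapped a tRNA feature. Outside tRNA features and features overlapping them lay 9.51% of R1 counts in replicate 1 and 16.3% in replicate 2. As a look at the cell type label, VIM, an intermediate filament gene typical of this mesenchymal line, had 382 and 722 counts. CD44, the other gene chosen as typical of this line, had only 12 and 7, fewer than each epithelial gene looked at. These epithelial genes, KRT18, EPCAM and CDH1, had 22 and 49, 20 and 27, and 40 and 51. The liver gene ALB had 0 in all 4 tables. Of genes of other cell types, HBB of red blood cells had 5 and 12, PTPRC of leukocytes 9 and 7, and RBFOX3 of neurons 24 and 54. These are CLIP counts and do not measure expression.

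SNHG14 held no counts in any of its snoRNAs, so their sequences are given before the values. The tables list 72 snoRNA features inside its span, 45 SNORD115 copies, 25 SNORD116 copies, SNORD108 and SNORD109B. Each had 0 counts in all 4 tables, which allows up to 3 counts in each table if reads matching several copies were kept. How such reads were handled is not given. Of all 1458 listed snoRNA features, only 29.5% had an R1 count in either library, so 0 R1 counts were not particular to these 72. All 72 matched GENCODE release 29 transcripts by identifier, with lengths of 59 to 102 bases and 39 distinct SNORD115 and 22 distinct SNORD116 sequences. The letters of a box C core, TGATGA, followed later by those of a box D, CTGA, were found in 67 of them (93.1%). Of all 955 snoRNA transcripts of that release, 306 had them (32.0%), searched on the transcript strand. These 955 were not limited to box C/D snoRNAs, and the 72 were not taken out of them. Most of the 72 are copies of SNORD115 or SNORD116, so they are not independent sequences. The percentages therefore describe sequence content and are not a test of these snoRNAs. The sequences below show 1 copy each of SNORD116 and SNORD115, with SNORD109B and SNORD108, 5′ to 3′, as DNA letters from the GENCODE transcripts. Capitals mark the first TGATGA and the last CTGA, and no CTGA follows TGATGA in SNORD108. Positions are hg19, chromosome 15, plus strand: SNORD116-1 at chr15:25296624-25296718, SNORD115-1 at chr15:25415870-25415951, SNORD109B at chr15:25523490-25523556 and SNORD108 at chr15:25232072-25232142.
SNORD116-1: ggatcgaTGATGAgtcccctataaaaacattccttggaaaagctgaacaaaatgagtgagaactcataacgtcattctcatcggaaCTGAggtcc
SNORD115-1: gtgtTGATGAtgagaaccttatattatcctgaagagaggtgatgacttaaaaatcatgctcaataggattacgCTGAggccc
SNORD109B: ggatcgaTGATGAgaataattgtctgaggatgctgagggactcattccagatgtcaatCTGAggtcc
SNORD108: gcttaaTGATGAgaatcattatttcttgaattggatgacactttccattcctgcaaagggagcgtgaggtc

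Together the 8 genes took a small share of the libraries, and MALAT1 made up about as many counts as the other 7. The 8 genes held 3613 R1 counts in replicate 1, or 0.0129% (95% Clopper-Pearson interval 0.0125 to 0.0134%), and 4772 in replicate 2, or 0.0232% (0.0225 to 0.0238%). Intervals in this text cover counting error only, with reads taken as independent. Without molecular identifiers, PCR copies of 1 molecule count as separate reads, so the intervals may be too narrow. As a share of the counts outside tRNA-overlapping features, the 8 genes took 0.136% (0.132 to 0.141%) and 0.142% (0.138 to 0.146%), and these intervals overlap. Of long non-coding RNA counts outside tRNA-overlapping features they took 1.15% and 1.17%. MALAT1 alone accounted for 51.2% of the counts of the 8 genes in replicate 1 (49.6 to 52.8%) and 49.1% in replicate 2 (47.6 to 50.5%).

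MALAT1 (ENSG00000251562.8_3, hg19 chromosome 11, 65265159 to 65273987, plus strand) had 1850 R1 counts in replicate 1 and 2341 in replicate 2. R2 held 1617 and 2041. Scaled to the library total, this was 90.0 ± 33.5 CPM (counts scaled to a fixed library total; SD, n = 2). Over its listed span of 8.83 kilobases MALAT1 had 210 counts per kilobase in replicate 1 and 265 in replicate 2. It ranked 41st of 2518 long non-coding RNA features with a mean R1 count of at least 10 by counts per kilobase, and 17th of the 2473 that overlapped no tRNA. Only AP000769.7, a lincRNA of 396 bases on the other strand, lies within its span, and it had 0 counts in all 4 tables. The mascRNA end is not a listed feature, so its part of the MALAT1 count could not be separated.

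NEAT1 (ENSG00000245532.8_4, chromosome 11, 65190245 to 65213011, plus strand) stood far below MALAT1, with 352 and 355 counts in R1 and 286 and 315 in R2. Over 22.8 kilobases this gave 15.5 and 15.6 counts per kilobase, and 14.9 ± 3.27 CPM (SD, n = 2). NEAT1 ranked 238th of 2518 by counts per kilobase. No feature other than 1 piRNA overlapped it, and that piRNA held 2 and 0 R1 counts.

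TUG1 (ENSG00000253352.9_4, chromosome 22, 31365231 to 31375381, plus strand) had 189 and 296 counts in R1 and 163 and 238 in R2, or 10.6 ± 5.38 CPM (SD, n = 2). Its 10.2 kilobases held 18.6 counts per kilobase in replicate 1 and 29.2 in replicate 2. TUG1 ranked 155th of 2518.

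KCNQ1OT1 (ENSG00000269821.1_4, chromosome 11, 2629558 to 2721224, minus strand) had 324 and 423 counts in R1 and 292 and 342 in R2, or 16.1 ± 6.32 CPM (SD, n = 2). Spread over 91.7 kilobases, these were 3.53 and 4.61 counts per kilobase, the 765th place of 2518.

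PVT1 (ENSG00000249859.9_3, chromosome 8, 128806779 to 129113499, plus strand) had the second highest counts of the 8 genes, 433 and 620 in R1 and 362 and 520 in R2, or 22.8 ± 10.3 CPM (SD, n = 2). Its span of 307 kilobases gave only 1.41 and 2.02 counts per kilobase, the 1228th place of 2518. Exons make up 1.79% of the PVT1 span in GENCODE release 29, so the span value is mostly set by intron length. If all counts lay in those 5493 exonic bases, the density would be 78.8 and 113 counts per kilobase. Where in the span the reads lie is not given by the tables.

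Both short snoRNA hosts were dense for their size. Of snoRNAs in their introns only SNORD78 of GAS5 is listed, so the part of any others in these counts could not be separated. SNHG1 (ENSG00000255717.6_2, chromosome 11, 62619460 to 62623386, minus strand) had 177 and 276 counts in R1 and 131 and 195 in R2, or 9.87 ± 4.99 CPM (SD, n = 2). Per kilobase of its 3.93 kilobases it had 45.1 counts in replicate 1 and 70.3 in replicate 2, the 82nd place of 2518. GAS5 (ENSG00000234741.7_4, chromosome 1, 173833038 to 173838020, minus strand) had 146 and 229 counts in R1 and 86 and 177 in R2, or 8.18 ± 4.16 CPM (SD, n = 2). Its 4.98 kilobases held 29.3 and 46.0 counts per kilobase, the 114th place. SNHG14 (ENSG00000224078.13_3, chromosome 15, 25223730 to 25664609, plus strand) had 142 and 232 counts in R1 and 118 and 204 in R2, or 8.18 ± 4.37 CPM (SD, n = 2). Over 441 kilobases this left 0.322 and 0.526 counts per kilobase, the 2046th place.

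**Figure D1:**
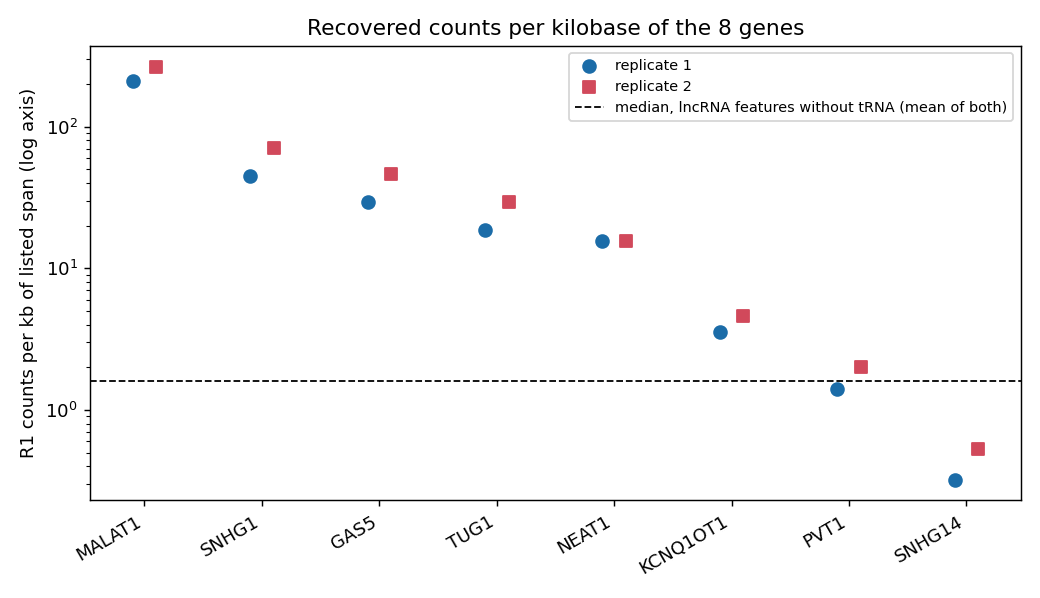
R1 counts per kilobase of the listed span (log axis) for each of the 8 genes in replicate 1 (circles) and replicate 2 (squares). The dashed line is the median of long non-coding RNA features without a tRNA, 1.60 counts per kilobase; MALAT1 stands highest at 210 and 265, and SNHG14 lies below the line at 0.322 and 0.526.

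By counts per kilobase the order was MALAT1, SNHG1, GAS5, TUG1, NEAT1, KCNQ1OT1, PVT1 and SNHG14 in both libraries, as the plot of counts per kilobase shows. Mean density differed 560-fold between MALAT1 and SNHG14, against 11.2-fold between the highest and lowest mean count. Among the 7 steps in this order, TUG1 over NEAT1 was a ratio of 1.20 in replicate 1 (95% interval 1.004 to 1.44) and 1.87 in replicate 2 (1.60 to 2.19). SNHG1 over GAS5 was 1.54 (1.23 to 1.93) and 1.53 (1.28 to 1.83), and GAS5 over TUG1 was 1.57 (1.26 to 1.96) and 1.58 (1.32 to 1.88). Wider steps were MALAT1 over SNHG1, at 4.65 (3.98 to 5.46) and 3.77 (3.33 to 4.29), NEAT1 over KCNQ1OT1, at 4.37 (3.75 to 5.103) and 3.38 (2.93 to 3.90), and PVT1 over SNHG14, at 4.38 (3.62 to 5.34) and 3.84 (3.30 to 4.49). KCNQ1OT1 over PVT1 was 2.50 (2.16 to 2.90) and 2.28 (2.01 to 2.59). Each of these intervals lies above 1, but the order was taken from these same counts, so they are no test of it. On exonic length, a setting chosen after seeing the data, PVT1 averaged 95.8, GAS5 51.6 and SNHG14 4.32 counts per kilobase, and PVT1 then stood above SNHG1 at 60.3.

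The median of the 8 genes was 19.7 R1 counts per kilobase and 12.8 CPM, against 1.64 counts per kilobase and 1.28 CPM over the 2518 long non-coding RNA features past the minimum. All 8 passed that minimum, as did 2518 of the 14838 long non-coding RNA features and 18723 of all 741078 listed features. The 8 genes were chosen with earlier results of these data known, so their passing is no result about them. Both denser and less dense noncoding RNAs stood among the others. RN7SK, the 7SK RNA that holds back transcription elongation, had 15030 and 21079 R1 counts per kilobase, RMRP, the RNA of ribonuclease MRP, 9041 and 12929, both far above MALAT1. TERC, the telomerase RNA, had 199.6 and 227, below MALAT1 in both libraries. NORAD, a cytoplasmic RNA that binds Pumilio proteins, had 31.8 and 51.9, between GAS5 and SNHG1 in both libraries.

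Some of the listed spans share their bases with other genes, and reads could then enter both counts. Of 25 long non-coding RNA features with at least 100 R1 counts in replicate 1 that lie wholly inside 1 protein-coding gene of the other strand, neither overlapping a tRNA, all 25 had at most the count of the gene around them. The same was true of all 7 such pairs on the same strand. In each pair the gene around is the longer one, so this outcome cannot show whether reads entered both counts. The strand setting of the counting is not given in the sources used here. Reads of overlapping partners on opposite strands therefore cannot be assigned to 1 strand.

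KCNQ1OT1 had nearly as many counts as the gene around it. KCNQ1, which encodes a potassium channel and lies on the other strand, had 376 and 477 R1 counts and encloses KCNQ1OT1 entirely. KCNQ1OT1 covers 22.7% of the KCNQ1 length. If reads inside KCNQ1OT1 were counted in both, which the tables do not show, KCNQ1OT1 would hold 86.2% of the KCNQ1 counts in replicate 1 (82.3 to 89.5%) and 88.7% in replicate 2 (85.5 to 91.4%). Its stretch would then have 3.53 and 4.61 counts per kilobase and the rest of KCNQ1 0.166 and 0.173, a ratio of 21.3 and 26.7, and of 23.7 and 27.1 in R2.

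SNHG14 could not be told apart from UBE3A, the ubiquitin ligase gene on the other strand (chromosome 15, 25578875 to 25684203). SNHG14 had 142, 232, 118 and 204 counts in R1 of replicate 1, R1 of replicate 2, R2 of replicate 1 and R2 of replicate 2, and UBE3A had 145, 252, 131 and 221. SNHG14 thus stood at 90.1 to 97.9% of the UBE3A count in every table, although the 85735 shared bases are 19.4% of SNHG14 and 81.4% of UBE3A. Lying wholly within the 355 kilobases of SNHG14 before UBE3A are 82 listed features other than piRNAs, which cover 24240 bases. They had 2, 0, 0 and 0 counts in the same order of tables. If the SNHG14 counts were spread evenly over its span, these features would have held 7.81, 12.8, 6.49 and 11.2. Most of them are snoRNA features, largely copies of SNORD115 and SNORD116, so they may not stand for the whole stretch. Where in SNHG14 its counts lie was not tested. The 2 counts lay in the pseudogene RP11-145P16.4. SNRPN, a splicing protein gene that overlaps the first 141 bases of SNHG14 on the same strand, had 73 and 140 R1 counts. RP11-701H24.9, also on the same strand, lies partly in SNHG14 before UBE3A and shares 21694 bases with it. Over its whole length it had 4, 6, 2 and 4 counts in the same order of tables, and which of these lie in the shared bases is not given. Of all 1458 listed snoRNA features, 29.5% had an R1 count in either library.

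TUG1 shares 2334 bases with RP3-430N8.11, a lincRNA on the other strand that had 56 and 110 R1 counts. This stretch is 23.0% of the TUG1 span and would hold 29.6% of the TUG1 counts in replicate 1 (23.2 to 36.7%) and 37.2% in replicate 2 (31.6 to 42.9%). Both intervals lie above the share of length. In R2 the shares were 28.8% (22.0 to 36.4%) and 31.1% (25.3 to 37.4%), and the interval of replicate 1 holds the share of length.

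**Figure D2:**
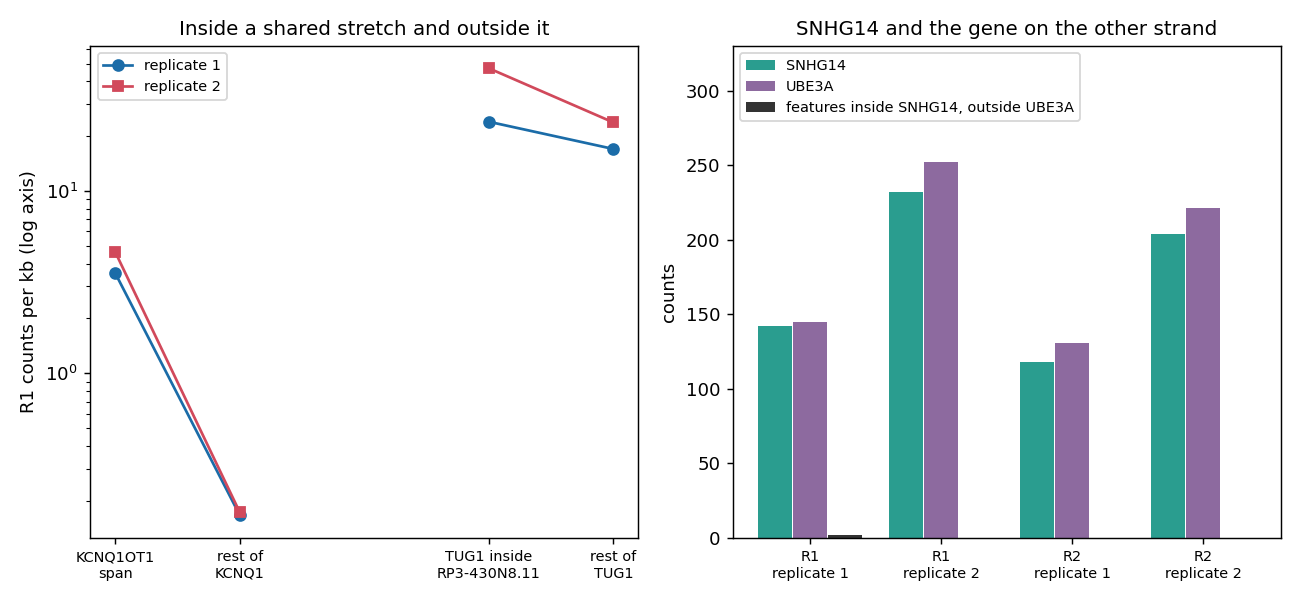
Left, R1 counts per kilobase (log axis) in each library for the KCNQ1OT1 span and the rest of KCNQ1, and for TUG1 inside RP3-430N8.11 and the rest of TUG1, if reads of the inner feature were also counted in the outer one; KCNQ1OT1 stands at 3.53 and 4.61 and the rest of KCNQ1 at 0.166 and 0.173. Right, counts (linear axis) of SNHG14, of UBE3A and of the 82 listed features inside SNHG14 before the start of UBE3A in the 4 tables; the last are 2, 0, 0 and 0.

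GAS5 overlaps ZBTB37 by 801 bases and GAS5-AS1 by 42 bases, both on the other strand. ZBTB37 had 40 and 82 R1 counts and GAS5-AS1 22 and 22. Inside GAS5 the tables list 1 snoRNA, SNORD78, with 0 and 4 R1 counts and 1 and 6 R2 counts, and within SNHG1 they list 0 features. A piRNA feature of 31 bases, piR-hsa-23387, lay in GAS5 with 14 and 15 R1 counts but 0 and 6 R2 counts. If counted in both, these would be 9.59% and 6.55% of the GAS5 counts of R1 in 0.622% of its span. The same name is listed at 89544 places, of which 4642 had an R1 count, so a read there may belong elsewhere. In PVT1, the snRNA copy RNU4-25P lies on the other strand and held 17 and 10 R1 counts. If counted in both, these would be 3.93% and 1.61% of the PVT1 counts, in 0.0750% of the span. A read may count in a short feature that it only partly overlaps, and the overlap asked for is not given, so shares of such short features are upper values. Both PVT1 microRNA features listed, MIR1205 and MIR1207, held 0 R1 counts, and MIR1207 had 1 R2 count in replicate 1.

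The 2 libraries differed in their balance. Of the 8 genes, all but SNHG14 had a ratio of replicate 2 to replicate 1 below the median of long non-coding RNAs, with NEAT1 lowest. In CPM, replicate 2 over replicate 1 was 1.37 for NEAT1 (95% interval 1.18 to 1.59), 1.72 for MALAT1 (1.61 to 1.82), 1.77 for KCNQ1OT1 (1.53 to 2.05) and 1.94 for PVT1 (1.71 to 2.20). SNHG1 stood at 2.11 (1.74 to 2.57), TUG1 at 2.12 (1.76 to 2.56), GAS5 at 2.13 (1.72 to 2.63) and SNHG14 at 2.21 (1.79 to 2.75). These 4 genes were at least 2-fold higher in replicate 2, 4 of 8, against 60.2% of the 18723 features with a mean R1 count of at least 10 and 58.4% of the long non-coding RNA features. The share of the 8 genes was thus near that of all features. The ratio compares 1 library with 1 other and no conditions, and the share of counts outside tRNA-overlapping features moved with it, at 9.51% and 16.3%.

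The median ratio was 2.17 over the 2473 long non-coding RNA features without a tRNA (quartiles 1.72 and 2.71) and 2.17 over 13120 protein-coding genes without one. NEAT1 lay above 11.8% of these long non-coding RNA features and above 4.12% of the protein-coding genes. MALAT1 lay above 24.8% and 15.1%, KCNQ1OT1 above 27.6% and 18.1%, and PVT1 above 36.6% and 30.3%. SNHG1, TUG1 and GAS5 lay above 47.7%, 48.0% and 48.2% of the long non-coding RNA features, and SNHG14 above 52.6%. The counting intervals of NEAT1, MALAT1 and KCNQ1OT1 ended below 2.17, and those of PVT1 and the other 4 genes held it. The share of all features whose interval leaves out 2.17 was not worked out, so this is no result about these genes. The interval of NEAT1 ended below the start of those of MALAT1 (by 1.59 against 1.61), PVT1, SNHG1, TUG1, GAS5 and SNHG14, and overlapped that of KCNQ1OT1. Scaled to the counts outside tRNA-overlapping features, NEAT1 stood at 0.798 (0.686 to 0.927), MALAT1 at 1.001 (0.941 to 1.06), KCNQ1OT1 at 1.03 (0.891 to 1.20) and SNHG14 at 1.29 (1.04 to 1.60), against a median of 1.27 over long non-coding RNA features without a tRNA. The order of the genes cannot change with a scaling of whole libraries, but the direction for NEAT1 did. With TMM scaling, NEAT1 stood at 0.641, MALAT1 at 0.805 and SNHG14 at 1.04, and SNHG14 was the only one of the 8 above 1. In R2, NEAT1 stood at 1.41 (1.20 to 1.66), KCNQ1OT1 at 1.498 (1.28 to 1.76), MALAT1 at 1.61 (1.51 to 1.72) and GAS5 at 2.63 (2.02 to 3.45) in CPM.

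**Figure D3:**
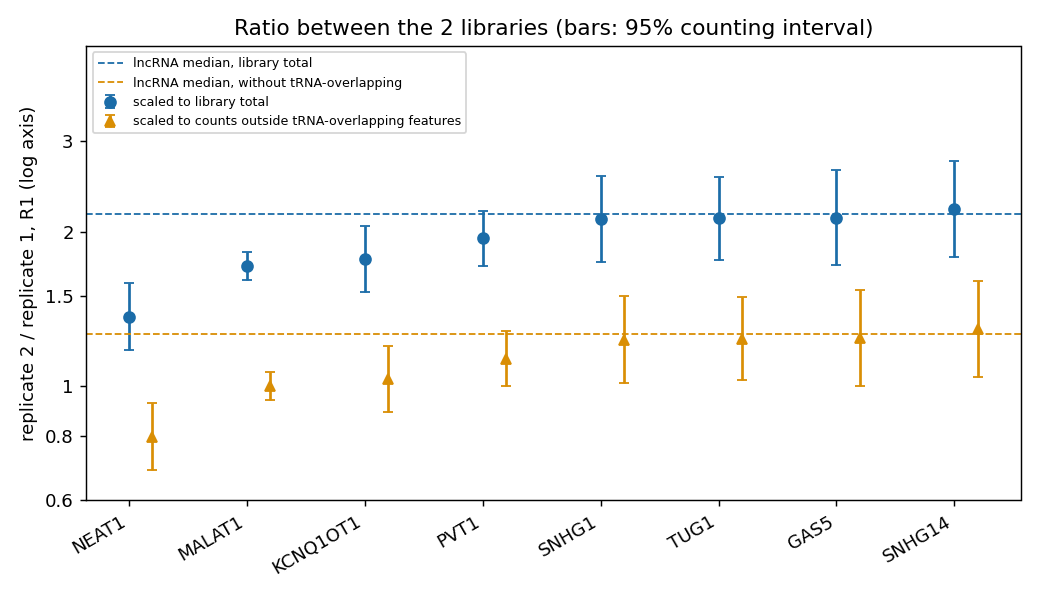
Ratio of replicate 2 to replicate 1 in R1 (log axis) for each of the 8 genes, with 95% counting intervals, scaled to the library total (circles) and to the counts outside tRNA-overlapping features (triangles). Dashed lines are the medians of long non-coding RNA features without a tRNA, 2.17 and 1.27; NEAT1 is lowest at 1.37 and 0.798.

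For each of the 8 genes, the second mate held a larger part of the first mate's count than in the library totals. R2 counts were 58.9 to 90.1% of R1 counts over the 8 genes and both replicates, whereas the R2 total was 40.3% of the R1 total in replicate 1 and 42.7% in replicate 2. The median over 473 tRNA features was 40.2% and 38.4%. The median over long non-coding RNA features without a tRNA was 86.7% and 82.9%, so a high ratio was not particular to the 8 genes. MALAT1 stood at 87.4% and 87.2%, NEAT1 at 81.3% and 88.7%, KCNQ1OT1 at 90.1% and 80.9%, TUG1 at 86.2% and 80.4%, PVT1 at 83.6% and 83.9%, and SNHG14 at 83.1% and 87.9%. Both short snoRNA hosts were lower, GAS5 at 58.9% and 77.3% and SNHG1 at 74.0% and 70.7%. Mates come from the same fragments, so no test was made.

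**Figure D4:**
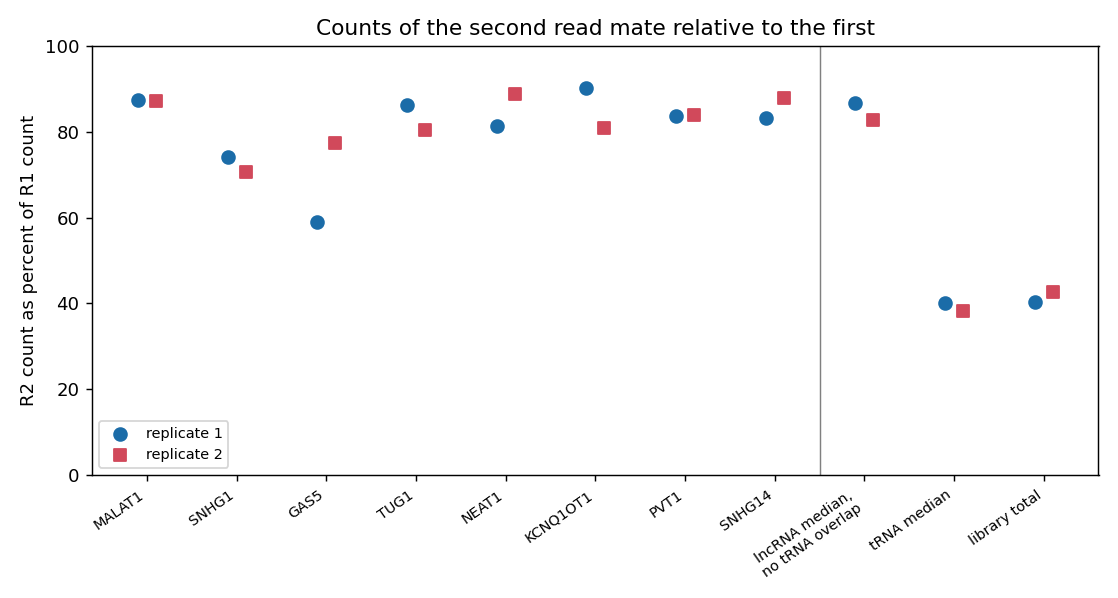
R2 count as a percent of the R1 count in replicate 1 (circles) and replicate 2 (squares) for the 8 genes, the median of long non-coding RNA features without a tRNA, the median of tRNA features and the library totals. The 8 genes lie between 58.9 and 90.1%, and the library totals at 40.3 and 42.7%.

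The features most like each gene were sought by distance in the log2 replicate ratio and the log2 ratio of R2 to R1, over 391 long non-coding RNA features with a mean R1 count of at least 100. With 2 libraries and 2 mates this is a description of 4 values. The nearest to MALAT1 was AC010976.2, with a replicate ratio of 1.72 and an R2 share of 88.2%, and the nearest to NEAT1 was COX10-AS1, with 1.42 and 89.5%. RP11-425I13.3, an antisense feature, was the nearest to both GAS5 and SNHG1, at distances of 0.0336 and 0.0344. GAS5 and SNHG1 were each the second nearest of the other, at a distance of 0.0381. RMRP was the nearest to PVT1, with a ratio of 1.94 and an R2 share of 83.1%, and RP11-68I3.2 the nearest to SNHG14, with 2.21 and 85.9%.

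Lists of other snoRNA hosts, of proteins of paraspeckles, speckles and snoRNPs, and of other long noncoding RNAs had median densities of 1.54 to 25.2 R1 counts per kilobase. Of 26 other snoRNA host genes on a chosen list, 20 were found and 18 passed the minimum, with a median of 11.2 R1 counts per kilobase over those found, against 37.6 over GAS5, SNHG1 and SNHG14. RACK1, a ribosomal protein gene that hosts snoRNAs, had 83.3 and 152 counts per kilobase, SNHG16 41.1 and 81.2, and SNHG3 42.9 and 64.5. The 13 paraspeckle and speckle protein genes had a median of 25.2 per kilobase, led by the splicing factor genes SRSF1 at 100.1 and 182 and SRSF2 at 72.7 and 142; SFPQ, a core paraspeckle protein gene, had 28.1 and 47.9, and NONO, its partner, 25.1 and 40.6. Of 9 snoRNP protein genes, 8 were found, with a median of 16.2, led by NOP56 at 36.2 and 67.9 and FBL, the gene of the box C/D methyltransferase fibrillarin, at 20.7 and 40.5. The list of 27 other long noncoding RNAs had 24 found and 18 past the minimum, with a median of 1.54. At least 2-fold higher in replicate 2 were 15 of the 18 other hosts, 11 of the 18 other long noncoding RNAs, 11 of the 13 paraspeckle and speckle genes and 7 of the 8 snoRNP genes, with median ratios of 2.20, 2.12, 2.31 and 2.59. Over all features past the minimum the share was 60.2%, over long non-coding RNA features 58.4% and over the 13120 protein-coding genes without a tRNA 64.4%. The 5 long noncoding RNAs of the 8 genes had a median ratio of 1.77 and the 3 snoRNA hosts 2.13.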

How the data were processed

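For both CLIP-seq libraries the authors deposited, per read mate, a table of unnormalized whole-number counts over listed features. The submitters' processing notes name Bowtie2 2.3.5.1, bedtools 2.24.0 and the build hg19 (GRCh37). Not given in the sources used here are alignment options, the overlap asked for, strand use and the handling of reads with several matches. Multi-mapped or shared reads could therefore enter several features, and multi-mapped ones could also have been left out. After 13 repeated lines were dropped, counts were divided by the table total (CPM) and by the listed span. tRNA and piRNA starts were read as 0-based. Intervals are exact Clopper-Pearson at 95%, and the ratio of 2 counts uses its conditional binomial form. This interval was tried only on simulated independent counts. These share its assumption, so the trial cannot show how it behaves with PCR copies. With 1 group and no control, no test was made. TMM factors came from edgeR 4.0.16 and size factors from DESeq2 1.42.0 (R 4.3.3), as alternatives, along with R2, both mates summed, other denominators, enclosed counts subtracted and each replicate left out. Exonic lengths and snoRNA sequences are from GENCODE release 29 (GRCh38), with no coordinates taken from it. The computing used scipy 1.17.1, pandas 2.3.3 and numpy 2.4.6 under Python 3.11.15, and plots were drawn with matplotlib 3.10.9.

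The members and lists were chosen with earlier results of these data known. Named besides the 8 genes are the 5 highest overlapping features and the highest piRNA of each, the 2 nearest long non-coding RNAs of each gene, and the 5 densest genes of each list, from which examples are given. SNORD116-1, SNORD115-1, SNORD109B, SNORD108, MIR1205 and MIR1207 are not covered by it: they were picked with their values in view.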

Additional observations from a re-analysis of the deposited data

How the results depend on the processing

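With R2 in place of R1, the 5 long noncoding RNAs took 0.0317%, the 3 snoRNA hosts 0.00476% and the 8 genes 0.0365% of the counts, against 0.0154%, 0.00262% and 0.0181% in R1. Over the counts outside tRNA-overlapping features they took 0.119%, 0.0197% and 0.139%, and over long non-coding RNA counts 0.187%, 0.0316% and 0.219%, since these totals are smaller. With either replicate left out, the shares ranged from 0.0113 to 0.0196%, from 0.00167 to 0.00358% and from 0.0129 to 0.0232%; a mean of 2 always moves by less than 1 SD this way. The number of genes at least 2-fold apart between replicates was 4 on library totals, 0 with TMM, 0 with DESeq2 size factors, 0 over counts outside tRNA-overlapping features and 2 in R2. Of 72 CPM values of single genes, 25 moved by more than 1 SD. Of 48 places by counts per kilobase, 19 moved; MALAT1 stayed between 17 and 41, SNHG1 between 56 and 82, NEAT1 between 173 and 294, and SNHG14 reached 4964 with no count minimum. Without SNHG14, chosen after seeing the data, the other 2 hosts took 0.00180% and the median density of the other genes was 23.9 counts per kilobase. Apart from these smaller totals, the cause was not tested. No paired analysis was possible because all libraries belong to a single group. For the SNORD features, 0 counts allow up to 3 in each table if reads matching several copies were kept.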
